A study of Mus musculus with 39 samples.

Results

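Opposite-strand genes, whose symbols end in os after the symbol of the gene they run against, were described in nuclear RNA-seq of FANS-nuclei and INTACT-nuclei from the mouse neocortex. Of 24421 genes in the tables, 161 had a symbol of at least 3 characters followed by os and an optional number, and the 106 of these with a mean normalized read count of at least 5 in 1 or more of 3 batches were taken and are called os genes here. They were thus chosen by their mean level and not by the difference between the techniques. The genes just inside the limit were Rab11fip4os2, Zfp652os and Fmr1os, with highest batch means of 5.12, 5.26 and 5.43, and those just outside were Nkx2-2os, Abhd11os and Dlx6os2, with 4.73, 4.08 and 3.60. The remaining 55 symbols stayed below the limit in every batch. In the annotation, 96 of the 106 are described as opposite-strand genes. A further 4, Chd3os, Csmd2os, Ppp1r3fos and Toporsos, have another description or none there (Chd3os, Ppp1r3fos and Toporsos are listed as Rnf227, Flicr and Smim27) and were taken as opposite-strand genes by the stem of their symbol. Of these 100, 99 lie on the strand opposite to the gene named by their stem, which is called the stem gene here. The other 6 symbols, Nanos1, Nanos2, Nanos3, Minos1, Mocos and Nrros, only happen to end in os and name protein-coding genes of another kind.

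The mice were male and female, 13 to 16 weeks old, and carried the transgene Arc creERT2(TG/WT) and the reporter R26 CAG-Sun1-sfGFP-Myc, as M/WT or M/M. Tamoxifen was given 5 h before a social interaction test, so that cells with Arc promoter activity labelled their nuclear membrane with Sun1-sfGFP, and every library, of either technique, came from such sfGFP+ nuclei. FANS sorted these nuclei by flow cytometry, whereas INTACT captured them on antibody-coated magnetic beads, with 10000 nuclei per RNA library. The tables held 4 FANS and 4 INTACT libraries in batch 1, 7 and 4 in batch 2, and 7 and 5 in batch 3. The batches were separate biological sources, and batch 1 had the higher RNA integrity, so source, RNA integrity and batch cannot be told apart. The RNA libraries of a batch thus came from 1 source. The ATAC-seq libraries, 3 per technique, were technical replicates of 1 source.

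Opposite-strand transcripts are mostly long non-coding RNAs that run antisense to a neighbouring or surrounding gene. Some start head to head with that gene from a shared promoter, some overlap its exons, and some lie wholly in its introns, where their sequence is also transcribed, from the other strand, as part of the unspliced precursor. Many such RNAs stay in the nucleus, and a few regulate the gene that they overlap, so a nuclear library is a natural place to read them. Of the 100 opposite-strand genes, 47 share exon bases with the stem gene, 20 lie inside the stem gene without sharing an exon base, 19 start within 1000 bases of a start of the stem gene without overlapping it, and 13 lie elsewhere. The remaining 1, Zbtb8os, has no stem gene in the tables and no position. Non-coding genes make up 91 of them and protein-coding genes 9. The strand setting of the read counting is not given in the sources used here. If strand was not used, reads from an opposite-strand gene and from its stem gene cannot be told apart where both overlap, and every value below carries this limit.

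A normalized read count is the number of reads on a gene, after removal of duplicates by molecular identifiers, divided by the size factor of the library. The libraries held 4205665 to 11028713 reads on genes, of which 5717 to 11648 fell on the 106 os genes. In batch 1 these genes took 0.132 to 0.147% of the gene reads in the FANS libraries and 0.104 to 0.107% in the INTACT libraries, ranges that did not overlap. In batch 2 the ranges were 0.126 to 0.135% and 0.118 to 0.124%, and in batch 3 they overlapped, at 0.126 to 0.151% and 0.131 to 0.138%. The markers of excitatory neurons summed to 6386 to 8502 normalized counts per library, and none of the markers listed for any cell type was at 0 in every library of a batch. The nuclei are labelled as activated neuronal nuclei, yet the summed markers of astrocytes reached 4900 to 7688 and those of oligodendrocytes 1569 to 14673. These sums are not per length. In such bulk samples, fewer cells of a type and less RNA per cell cannot be told apart.

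Promoter windows illustrate the kinds of start site that recur below. The first 3 are the genes of highest level among those called lower in INTACT in batch 1 whose start had no ATAC-seq peak and whose window is in the RefSeq table. The last 3 are those of highest level among genes that start near a start of the stem gene and had a peak there in all 6 libraries. Each window runs from 250 bases before the start to the first 50 transcribed bases, 5′ to 3′ in the direction of the opposite-strand gene, from RefSeq on GRCm38.p6, which is mm10. Where a gene had more than 1 window, the first listed was taken, here and in the counts below. Capitals mark every CG dinucleotide.
Dnm3os (chr1:162217373-162217672, plus strand): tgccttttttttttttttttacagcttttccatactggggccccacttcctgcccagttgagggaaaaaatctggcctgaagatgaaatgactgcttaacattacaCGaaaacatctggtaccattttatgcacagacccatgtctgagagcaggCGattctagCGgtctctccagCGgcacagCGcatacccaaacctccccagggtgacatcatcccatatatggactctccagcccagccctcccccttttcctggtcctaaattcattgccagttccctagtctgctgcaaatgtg
Pcsk2os2 (chr2:143789137-143789436, minus strand): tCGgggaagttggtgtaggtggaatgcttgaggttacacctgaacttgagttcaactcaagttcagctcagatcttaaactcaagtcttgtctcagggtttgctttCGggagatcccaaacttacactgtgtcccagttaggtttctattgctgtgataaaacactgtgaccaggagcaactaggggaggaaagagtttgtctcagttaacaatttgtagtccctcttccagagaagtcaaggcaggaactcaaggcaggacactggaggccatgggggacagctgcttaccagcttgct
Arhgap20os (chr9:51875836-51876135, minus strand): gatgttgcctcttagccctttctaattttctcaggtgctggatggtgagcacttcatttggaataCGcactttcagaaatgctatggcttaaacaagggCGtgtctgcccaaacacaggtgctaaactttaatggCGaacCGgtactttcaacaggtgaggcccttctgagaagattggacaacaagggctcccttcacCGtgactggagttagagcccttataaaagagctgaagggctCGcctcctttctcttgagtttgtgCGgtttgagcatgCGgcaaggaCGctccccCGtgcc
Fam120aos (chr13:48967862-48968161, plus strand): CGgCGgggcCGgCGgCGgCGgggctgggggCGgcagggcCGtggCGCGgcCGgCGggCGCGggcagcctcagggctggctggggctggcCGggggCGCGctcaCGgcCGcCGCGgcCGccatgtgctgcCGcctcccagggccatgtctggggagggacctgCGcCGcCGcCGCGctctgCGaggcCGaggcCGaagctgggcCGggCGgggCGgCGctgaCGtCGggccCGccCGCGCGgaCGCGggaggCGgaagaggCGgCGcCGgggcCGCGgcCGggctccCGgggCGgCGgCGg
Cep83os (chr10:94688564-94688863, minus strand): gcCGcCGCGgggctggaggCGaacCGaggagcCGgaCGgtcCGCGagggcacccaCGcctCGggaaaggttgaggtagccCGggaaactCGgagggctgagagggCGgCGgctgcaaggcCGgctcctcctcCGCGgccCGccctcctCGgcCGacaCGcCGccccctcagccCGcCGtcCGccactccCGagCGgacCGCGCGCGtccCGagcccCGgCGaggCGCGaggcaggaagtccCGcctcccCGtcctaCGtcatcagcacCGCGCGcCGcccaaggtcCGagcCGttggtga
Ino80dos (chr1:63114221-63114520, plus strand): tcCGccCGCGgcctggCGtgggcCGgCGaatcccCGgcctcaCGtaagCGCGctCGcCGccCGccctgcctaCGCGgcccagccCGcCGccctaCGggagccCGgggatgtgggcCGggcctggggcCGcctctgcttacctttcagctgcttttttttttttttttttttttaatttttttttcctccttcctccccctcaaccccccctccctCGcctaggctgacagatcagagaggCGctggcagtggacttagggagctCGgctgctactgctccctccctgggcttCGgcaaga
The windows without a peak held 5, 2 and 10 CG dinucleotides for Dnm3os, Pcsk2os2 and Arhgap20os. Those of Fam120aos, Cep83os and Ino80dos held 54, 46 and 25, and all 3 had GGGCGG, the core letters of an SP1 site, on at least 1 strand. TATAAA, the letters of a TATA box, and CCAAT were found in the window of Arhgap20os alone among the 6. Over the 80 opposite-strand genes with a window, TATAAA was found in 7, CCAAT in 30, GGGCGG in 28 and CACGTG in 11, reading both strands. These are 8.75, 37.5, 35 and 13.8%, beside 14.2, 37.9, 35.9 and 7.24% over the windows of all 27025 genes.

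In batch 1, a part of the os genes was depleted in INTACT-nuclei. Of 102 os genes tested, 30 were called lower in INTACT and 1 higher, by limma with an adjusted p under 0.05 over all genes and a change of at least 1.5-fold. Across all 15114 genes tested, 3.94% were called lower and 4.03% higher. The median log2 fold change, INTACT minus FANS, was -0.31 over the 102 genes and 0.01 over all genes. Without the fold limit, 38 were lower and 5 higher, beside 17.5% and 18.6% of all genes. The 2 sets of libraries did not overlap, with INTACT the lower, for 33 of the 102 genes and for 16.5% of all genes. A mean taken over both techniques can admit a gene through the higher group alone, and 9 of the 102 had a mean under 5 in 1 technique. Among the 93 with at least 5 in both, 27 were called lower, beside 3.82% of all genes with that level. The 3 called lower that passed through FANS alone were Hmgb4os, Sox5os3 and Grip1os2, with INTACT means of 3.97, 3.04 and 4.96, and a gene admitted in this way had to differ.

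Nrg3os had the smallest adjusted p of them. It lies inside Nrg3, the gene of a neuregulin ligand of ERBB4, on chromosome 14 (chr14:38898302-38958794, plus strand) and shares no exon base with it. Its normalized counts were 341, 378, 472 and 451 in the FANS libraries and 129, 109, 106 and 110 in the INTACT libraries. Every INTACT library was below every FANS library, and the level was 3.58-fold lower (log2 fold change -1.84 ± 0.10 SE, limma adjusted p = 1.5e-12). Per kilobase of exon, Nrg3os stood at 443 normalized counts in FANS, 166% of the level of Nrg3, and at 122 in INTACT, 66.2% of it.

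In the FANS libraries of batch 1, though not in every group, Sorbs2os was the most abundant opposite-strand gene per kilobase, at 542 normalized counts per kilobase. It runs through Sorbs2, which encodes an adaptor of the actin cytoskeleton, and shares 3.4% of its exon bases with it (chr8:45723325-45819297, minus strand). Its counts were 1254, 1294, 1436 and 1383 in FANS and 760, 795, 743 and 762 in INTACT. The groups were well apart, and the level fell by 0.81 on the log2 scale (SE 0.05, limma adjusted p = 4.6e-11).

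Srrm4os and Pcsk2os2 also share only a small part of their exons with the stem gene. Srrm4 encodes a neuronal splicing regulator, and Srrm4os (chr5:116438722-116465487, plus strand) had 507, 569, 504 and 584 counts in FANS and 337, 339, 269 and 295 in INTACT. All INTACT values lay below all FANS values, at -0.80 ± 0.08 on the log2 scale (limma adjusted p = 1.7e-08). Pcsk2 encodes a prohormone convertase, and Pcsk2os2 (chr2:143747583-143789186, minus strand) shares 2.3% of its exon bases with it. Its counts were 450, 460, 387 and 654 in FANS and 272, 219, 211 and 198 in INTACT, again without overlap. The difference was -1.10 ± 0.11 on the log2 scale (limma adjusted p = 4.6e-08), from the CG-poor start shown above.

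**Figure D1:**
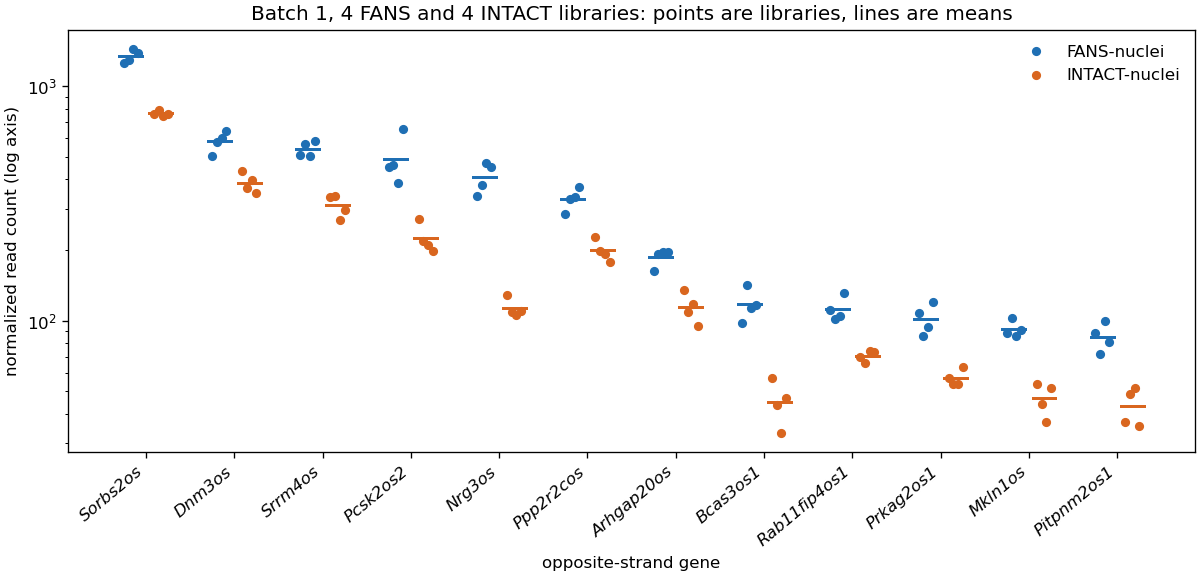
Normalized read counts (log axis) in each FANS and INTACT library of batch 1 for the 12 opposite-strand genes of highest FANS level among the 30 called lower in INTACT; points are libraries and lines are means. Nrg3os has the widest gap, from means of 410 in FANS to 113 in INTACT.

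The opposite-strand genes inside the stem gene without a shared exon base had the highest share of calls among the 4 positions, a difference that was not tested. Of the 20, 16 were tested in batch 1, all 16 had a log2 fold change below 0, 14 were called lower and the median was -0.90. Grip1os2, which was called, and Arhgap27os3, which was not, had an INTACT mean under 5. They were tested through their FANS level alone, so their direction was set by the filter. The 17 stem genes around the class had a median of -0.22, with 1 called lower. Summed, the 20 took 0.0241 to 0.0306% of the gene reads in the FANS libraries and 0.0137 to 0.0159% in the INTACT libraries, ranges with no overlap. Besides Nrg3os, the class held Bcas3os1, at -1.37 ± 0.16 on the log2 scale (limma adjusted p = 3.4e-07), Dnmt3aos, inside the gene of a de novo DNA methyltransferase, with -1.13 ± 0.23 (0.00033), and Ppp2r2cos, inside the gene of a regulatory subunit of the phosphatase PP2A, with -0.73 ± 0.09 (8e-07).

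Bcas3os1 had 97.8, 142, 113 and 116 counts in FANS and 57.1, 43.6, 33.2 and 46.9 in INTACT, and Ppp2r2cos had 286, 330, 335 and 373 against 228, 199, 192 and 178. Neither gene had overlapping groups. Dnm3os is a single exon inside Dnm3, the gene of a dynamin, and covers the microRNA genes Mir199a-2 and Mir214 (chr1:162217623-162225550, plus strand). It had 505, 575, 604 and 646 counts in FANS and 434, 367, 397 and 350 in INTACT, which do not overlap. Its difference of -0.59 ± 0.08 on the log2 scale (limma adjusted p = 1.6e-06) lay at the fold limit, and the call was lost without FANS replicate 3, FANS replicate 4, INTACT replicate 2 or INTACT replicate 4 in turn (-0.65 to -0.54 over all 8), and with a pseudocount of 5, 75th percentile scaling or edgeR.

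A further 4 genes of the class had low levels and wide errors. Grip1os1 and Grip1os2 both lie inside Grip1, which encodes a scaffold of AMPA receptors, with -1.41 ± 0.32 and -1.59 ± 0.38 (limma adjusted p = 0.0011 and 0.0016). Nell1os and Csmd2os stood at -1.59 ± 0.36 (0.0012) and -1.52 ± 0.34 (0.001). These 4 genes had means of 16.8 to 30.1 in FANS and 4.96 to 11.2 in INTACT, and none had overlapping groups. Grip1os2 was under 5 in INTACT and was tested through its FANS level. The rest of the class called lower were Pitpnm2os1 at -0.97, Prkag2os1 at -0.82, Rab11fip4os1 at -0.65, Rsf1os1 at -0.63 and Trpc5os at -0.61. The call of Rsf1os1 held without INTACT replicate 1 and was lost without any other library, with values of -0.72 to -0.56 over all 8. This call was kept under 3 of 9 other settings, among them a repeat of the main fit. That of Trpc5os was lost without FANS replicates 2 or 4, or without INTACT replicates 1 or 4 (-0.70 to -0.53), and with a pseudocount of 5 or 75th percentile scaling, and that of Rab11fip4os1 without FANS replicate 4 (-0.69 to -0.57). With Dnm3os, 4 of the 14 calls of the class were thus lost without some library and 10 were kept without each. Plxna4os1 and Arhgap27os3 had -0.54 ± 0.18 (adjusted p = 0.024) and -0.54 ± 0.49 (0.42) and were not called.

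The 4 genes of the class left untested were under the limit of 5 in batch 1. Bcas3os2 had 10.3, 8.58, 9.54 and 4.58 counts in FANS against 0, 0, 2.66 and 0.66 in INTACT, which do not overlap. Ptprtos, Lyzl4os and Rab11fip4os2 had FANS means of 6.64, 5.79 and 6.12 and INTACT means of 2.88, 1.55 and 3.07, with overlapping groups.

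**Figure D2:**
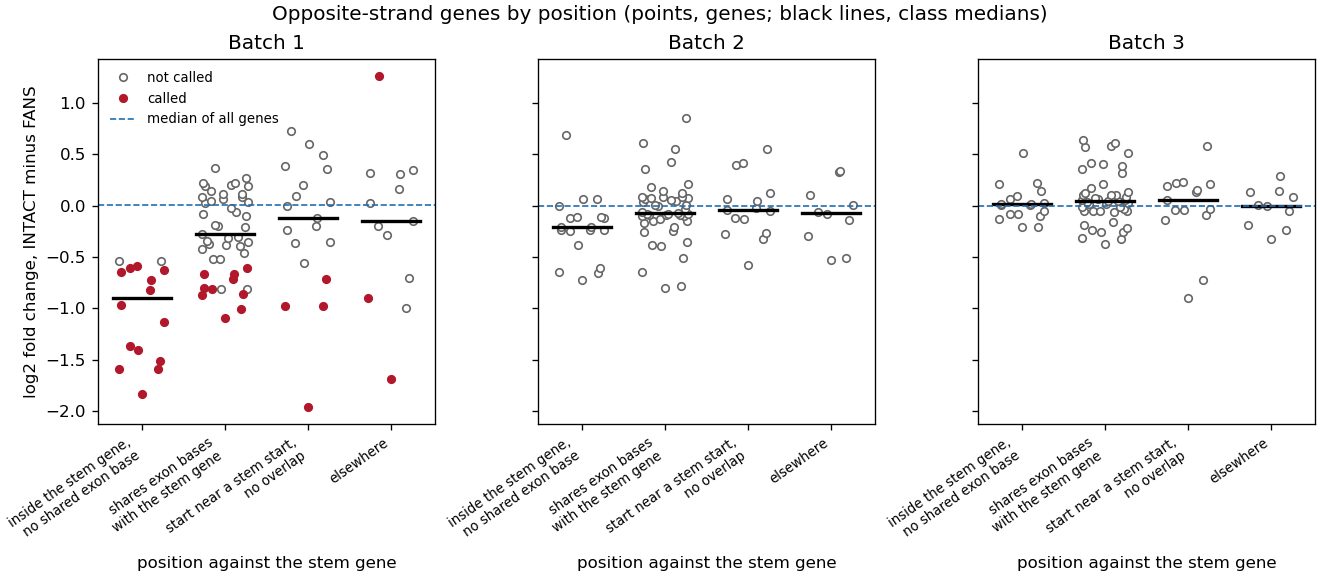
Log2 fold change, INTACT minus FANS, of each tested opposite-strand gene in 3 batches, by its position against the stem gene; filled points were called, black lines are class medians and the dashed line is the median of all genes. In batch 1 the class inside the stem gene has a median of -0.90, while in batches 2 and 3 its medians are -0.21 and 0.01 and no point is filled.

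Of the 47 genes that share exon bases with the stem gene, 10 were called lower in batch 1 and none higher, with a median of -0.28, beside -0.02 for the 45 stem genes. Apart from Sorbs2os, Srrm4os and Pcsk2os2, those called were Tbc1d22bos, with means of 38.0 in FANS and 18.3 in INTACT, Tnk2os at a log2 fold change of -0.87, Tmem150cos at -0.86, Arhgap20os at -0.71, Rptoros and Atxn7l1os2 at -0.66, and Ppp1r3fos at -0.61. Arhgap20os had 163, 193, 196 and 196 counts in FANS and 136, 109, 118 and 95.2 in INTACT, with no overlap. Tmem150cos and Ppp1r3fos had overlapping groups. The calls of Tmem150cos (-1.08 to -0.70 without 1 library) and Ppp1r3fos (-0.76 to -0.52) were lost without 4 and 5 of the 8 libraries, that of Rptoros (-0.79 to -0.57) without FANS replicate 1 or INTACT replicate 1, and that of Atxn7l1os2 (-0.80 to -0.51) without FANS replicate 4. For Tmem150cos these libraries were FANS replicates 1 and 4 and INTACT replicates 2 and 4, and for Ppp1r3fos FANS replicates 1, 2 and 3 and INTACT replicates 2 and 3. The call of Ppp1r3fos was also lost with a pseudocount of 5 or 75th percentile scaling, and that of Tmem150cos with no filter on low values. Several abundant genes of this class moved by less than 1.5-fold and were not called, among them Pcsk2os1 at -0.51 ± 0.09 (limma adjusted p = 6.3e-05), Chn1os3 at -0.46 ± 0.08 (3.3e-05), Slain1os at -0.34 ± 0.09 (0.0034) and Grin1os at -0.28 ± 0.11 (0.042), which runs against the gene of an NMDA receptor subunit.

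Of the 19 genes that start near a start of the stem gene without overlapping it, 4 were called lower and none higher, and the median was -0.12. Hmgb4os was called at -1.96 ± 0.35 (limma adjusted p = 9.1e-05), with an INTACT mean under 5, so that it was tested through its FANS level alone. It starts 149 bases from a start of Hmgb4 and lies inside Csmd2 on the strand of that gene (chr4:128261044-128262990, plus strand). Its counts were 21.9, 13.5, 19.1 and 19.9 in FANS and 3.46, 3.82, 3.98 and 4.63 in INTACT, from 4 to 7 reads per INTACT library, and the groups did not overlap.

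Hmgb4 fell too, from a mean of 20.6 to 5.91, by -1.61 ± 0.35 on the log2 scale (limma adjusted p = 0.00063). Mkln1os starts 55 bases from a start of Mkln1 and had 88.8, 103, 85.9 and 91.7 counts in FANS and 53.6, 44.4, 37.2 and 51.6 in INTACT. The groups were apart, at -0.98 ± 0.15 (limma adjusted p = 1.6e-05). Map2k3os and Emx2os were called at -0.97 and -0.71, but Map2k3os had overlapping groups. The call of Map2k3os was lost without replicate 1 of either technique or INTACT replicate 2 (-1.15 to -0.69) and with no filter on low values, and that of Emx2os without FANS replicate 4 (-0.84 to -0.58).

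The 3 genes of this class shown above with CG-rich starts were not called. Fam120aos had 332, 345, 296 and 313 counts in FANS and 382, 392, 418 and 459 in INTACT, so that every INTACT library was higher, by 0.36 ± 0.08 on the log2 scale (limma adjusted p = 0.00047), under the fold limit. Cep83os and Ino80dos had log2 fold changes of -0.12 ± 0.07 (0.19) and -0.01 ± 0.09 (0.97). Summed, the 19 genes took 0.0173 to 0.0195% of the gene reads in FANS and 0.0174 to 0.0191% in INTACT, ranges that overlap.

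Of the 13 genes placed elsewhere, Sox5os3 and Dlx6os1 were called lower, at -1.69 ± 0.45 (limma adjusted p = 0.0047) and -0.90 ± 0.16 (6.2e-05), and St8sia3os higher, at 1.27 ± 0.37 (0.0095). Sox5os3 had an INTACT mean of 3.04 and was tested through its FANS level of 11.3 alone. Dlx6os1, also known as Evf2, is a transcript of the Dlx5 and Dlx6 locus of inhibitory neurons. It had 64.3, 73.6, 76.3 and 81.0 counts in FANS and 39.8, 40.5, 38.5 and 37.0 in INTACT, while the 3 markers of inhibitory neurons summed to 184 to 252 and 250 to 281. The marker ranges overlap slightly, and 1 of the 3 markers was called higher in INTACT. St8sia3os had 15.4, 6.13, 4.09 and 6.11 counts in FANS and 29.4, 13.0, 20.6 and 14.5 in INTACT, the groups overlap, and the call was lost without INTACT replicate 1 (1.05 to 1.61 without 1 library).

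By kind, 29 of 87 tested non-coding opposite-strand genes were called lower with a median of -0.35, and 1 of 9 protein-coding ones with a median of 0.11. None of the 6 symbols that name no opposite-strand gene was called, and Nanos1 stood at 0.25 ± 0.09 (limma adjusted p = 0.033). Among the 10 most abundant genes, Slc7a6os, which is protein-coding, had 0.32 ± 0.08 (0.0042). Of the 31 calls, 20 held without each of the 8 libraries in turn and under every other setting that could be run.

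Of 94 stem genes tested, 4 or 4.26% were called lower, namely Hmgb4, Lyzl4, Sox5 and Zfhx2, and 1 higher, Ptgs2, beside 3.94% and 4.03% of all genes, and the median was -0.04. Of the 30 opposite-strand genes called lower, 2 had a stem gene called lower, 18 had one that was lower at an adjusted p under 0.05 whatever its fold, beside 17.5% of all genes, and 1, Pcsk2os2, had one that was higher at that p. Pcsk2 had a mean of 2365 in FANS and 2965 in INTACT, a difference of 0.33 ± 0.06 on the log2 scale (limma adjusted p = 4.2e-05). Nrg3 had -0.52 ± 0.06 (2.4e-07), beside -1.84 for Nrg3os. Across the 95 pairs tested, the log2 fold changes of the opposite-strand gene and the stem gene had a Pearson r of 0.43 and a Spearman coefficient of 0.33, a description over genes that share the same libraries.

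The log2 ratio of the opposite-strand gene to its stem gene was then tested for each pair, with p-values adjusted over 1407 pairs of tested genes that overlap on opposite strands or are named as a pair. The ratio differed between the techniques for 28 of the 95 pairs, beside 19% of all pairs. In 25 of the 28 the opposite-strand gene was down against the stem gene. The other pairs were ordered by symbol, so their direction gives no share to set beside the 25. The ratio of Pcsk2os2 to Pcsk2 was lower in INTACT by -1.43 ± 0.13 (limma adjusted p = 0.00078), and that of Nrg3os to Nrg3 by -1.32 ± 0.11 (0.0005). The ratios of Slc7a6os, Fam120aos and Mccc1os to their stem genes were higher, by 0.40, 0.47 and 0.51. For Hmgb4os, where both genes fell, the ratio was not called. The count of 28 rested on single libraries: without FANS replicate 3 or INTACT replicate 3 it was 17, and without INTACT replicate 2 or INTACT replicate 4 it was 18. With the replicate number as a block it was lower still, as given at the end.

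**Figure D3:**
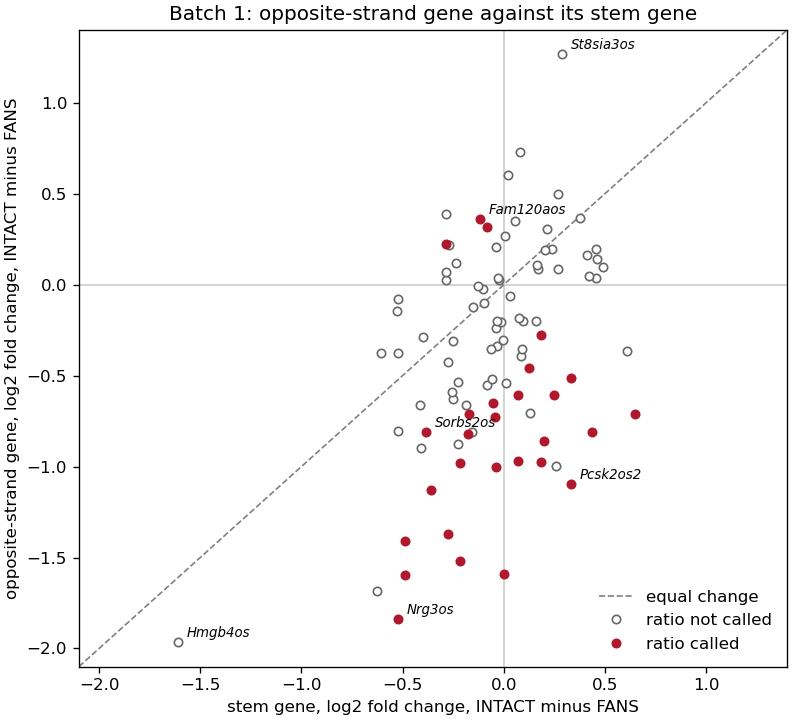
Log2 fold change, INTACT minus FANS in batch 1, of each opposite-strand gene (vertical) against that of its stem gene (horizontal); the dashed line marks equal change and filled points are pairs whose ratio was called. Of the 95 pairs, 69 lie below the line, and most stem genes sit close to 0.

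Genes that are not opposite-strand genes by name were set beside these classes. Other non-coding rows, with symbols that begin with Gm and a digit or end in Rik, had 156 called lower and 2 higher of 728 tested in batch 1, with a median of -0.27. Of other non-coding genes that lie inside a gene of the other strand without a shared exon base, 55.4% of those tested were called lower with a median of -0.86, and of protein-coding genes so placed, 31.3% with a median of -0.36. Other non-coding genes that share exon bases with a gene of the other strand were called lower in 13.4%, with a median of -0.22. Those that start near a start of such a gene were called lower in 5.97%, with a median of 0.04. For the opposite-strand genes that share exon bases or start near the stem gene, the shares were 21.3 and 21.1%. Of non-coding genes in none of the positions named here, 20.6% were called lower with a median of -0.25, and of protein-coding ones, 2.15%. Lower calls in INTACT were thus also found among genes without an os name, and no difference between the classes was tested. None of 23 genes of the RNA exosome and nuclear RNA decay was called, and their median was 0.04.

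Measures of the libraries differed between the techniques as well. The FANS libraries of batch 1 held 4853224 to 6066759 reads on genes and the INTACT libraries 8621143 to 11028713, without overlap. These ranges overlapped in batches 2 and 3. In batch 1, reads outside gene features, which include intronic reads, made up 79.4 to 81.7% of reads in the FANS libraries and 71.3 to 72.7% in the INTACT libraries. In batch 2 the shares were 79.4 to 81.6% and 77.4 to 78.9%, and in batch 3 they were 80.0 to 85.1% and 81.9 to 83.0%. In batch 1, 3 of 6 astrocyte markers and 4 of 6 oligodendrocyte markers were called higher in INTACT, with summed levels of 6179 to 6857 and 5773 to 7163 in FANS and of 7514 to 7688 and 9131 to 9619 in INTACT. Of the microglia markers tested, 1 of 3 was called lower, and of the vascular markers the 1 tested was called higher, while 0 of 5 markers of excitatory neurons were called. In batch 2, 1 of 6 astrocyte and 2 of 6 oligodendrocyte markers were called higher, with sums of 4900 to 6457 and 6337 to 12253 in FANS and of 5882 to 7183 and 12172 to 14673 in INTACT. In batch 3, 0 of either were called. The part of any of these in the opposite-strand values was not tested.

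**Figure D4:**
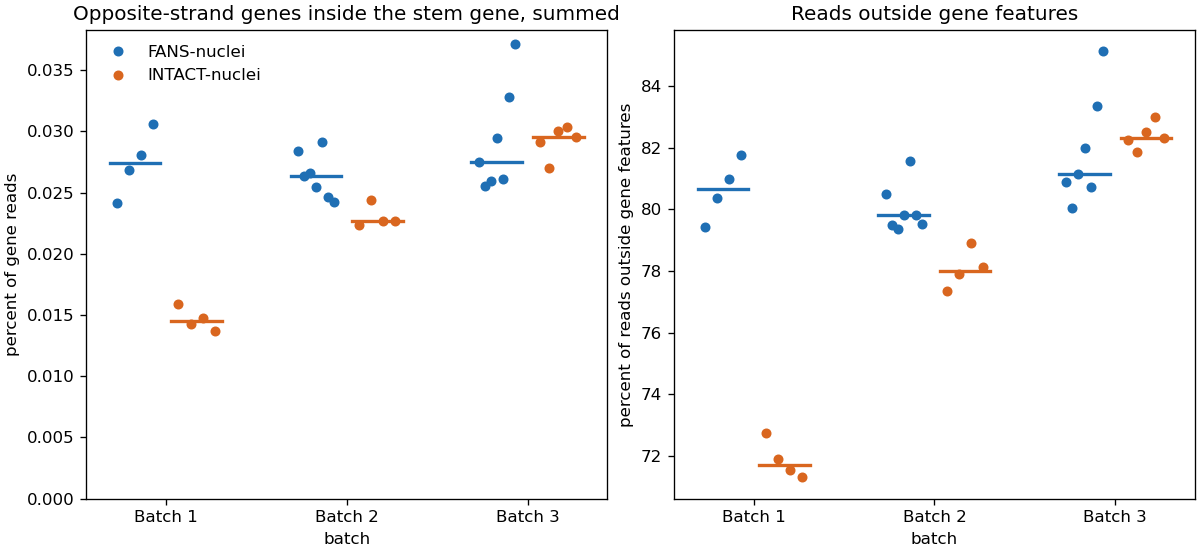
Left, percent of gene reads on the 20 opposite-strand genes inside the stem gene; right, percent of reads outside gene features; points are libraries, lines are medians, for FANS and INTACT in each batch. Both measures separate the techniques in batch 1, at medians of 0.0275% against 0.0145% and of 80.7% against 71.7%, and overlap in batch 3.

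In batch 2, 0 of 97 tested os genes were called by limma in either direction, beside 0.0336% of all genes called lower and 0.0941% higher. At an unadjusted p under 0.05, 13 were lower and 3 higher, beside 6.58% and 8.66% of all genes. The median log2 fold change was -0.09, and 63 of the 97 lay below 0, beside 50.2% of all genes. The groups did not overlap for 6 genes, all lower in INTACT, beside 1.4% of all genes. These 6 were Csmd2os, Ptgs2os, Rptoros, Rsf1os1, Rbm3os and Nanos1, with log2 fold changes of -0.72, -0.58, -0.51, -0.66, -0.78 and -0.19, of which Ptgs2os and Rbm3os were chosen after their values were seen.

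In batch 3, 0 of 95 os genes were called by limma, beside 0.346% of all genes lower and 0.0139% higher, and at an unadjusted p under 0.05, 2 were lower and 3 higher, beside 6.46% and 7.29% of all genes. The median was 0.04, and 38 of the 95 lay below 0, beside 51.1% of all genes. The counts of edgeR and of DESeq2 on whole reads were 0 in both directions in both batches. Other settings gave calls in batch 3, with 1 gene higher without FANS replicate 7. With only the libraries whose replicate numbers both techniques share, 2 were higher, with or without a block. The 30 genes called lower in batch 1 were all tested in batches 2 and 3, where their medians were -0.16 and 0.08, and 24 and 7 of them lay below 0, beside the 50.2% and 51.1% of all genes.

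The abundant genes showed this in their values. In batch 2 Nrg3os had a median of 313 in FANS, with a range of 265 to 404, and of 262 in INTACT, with 241 to 345, and in batch 3 the medians were 323 (258 to 421) and 353 (317 to 366), with overlap in both. Sorbs2os had medians of 1057 (934 to 1220) and 886 (826 to 948) in batch 2, at -0.24 ± 0.07 (limma adjusted p = 0.059), and of 841 (760 to 1047) and 886 (826 to 937) in batch 3. Its groups overlapped in both batches.

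The difference between batches was tested with an interaction term over 14332 genes, 93 of them os genes. Between batches 1 and 2 the technique difference differed for 14 of the 93, 13 of them lower in batch 1, beside 4.43% of all genes lower and 1.87% higher. Between batches 1 and 3 it differed for 35, 32 of them lower in batch 1, beside 12.1% and 11.2%. The difference for Nrg3os was -1.60 ± 0.17 on the log2 scale against batch 2 (limma adjusted p = 1.8e-08) and -1.91 against batch 3. Between batches 2 and 3 it differed for 0 of the 93 genes and 0 of all genes. Without FANS replicate 7 of batch 3, it differed for 3 of the 93. The comparisons with batch 2 and with batch 3 share the libraries of batch 1.

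**Figure D5:**
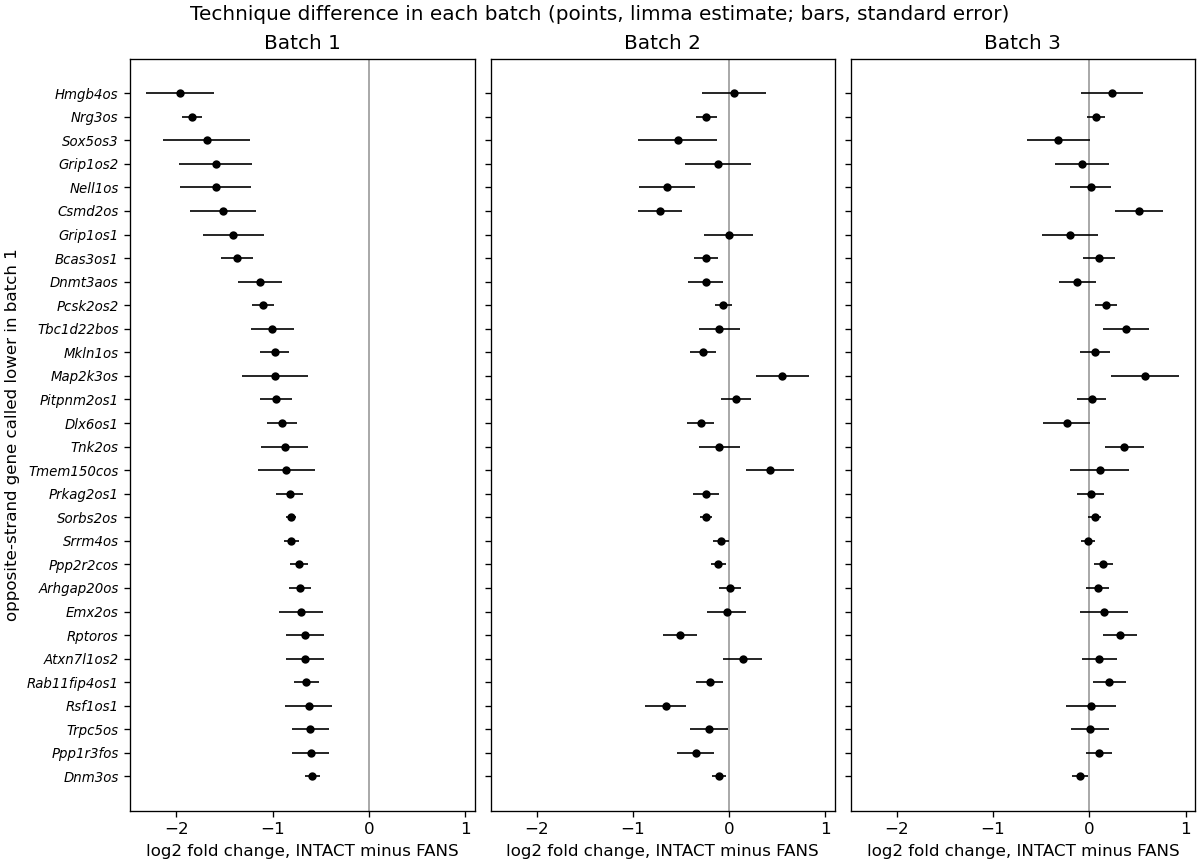
Log2 fold change, INTACT minus FANS, with its standard error, of the 30 opposite-strand genes called lower in batch 1, in each of the 3 batches. All points lie left of 0 in batch 1, the side that chose them, while in batch 3 only 7 do.

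ATAC-seq peaks were looked for within 500 bases of an annotated start of the 100 opposite-strand genes. The 3 FANS libraries had a peak at 55, 57 and 56 of them and the 3 INTACT libraries at 52, 53 and 54, beside 60.2 to 60.6% and 56.5 to 58.7% of all annotated genes. A peak was present in all 6 libraries for 50 and in none for 38, beside 55.0 and 37.2% of all genes. Read depth is unknown for the peak lists, and 3 technical replicates against 3 allow no exact p below 0.10, so no test was made.

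The calls of batch 1 were counted by the peak at the start, with no test between the counts. Of the genes with no peak in any library, 35 were tested, 18 were called lower and 1 higher, and the median was -0.63. Over all genes without a peak, 17% were called lower and the median was -0.22, and over other non-coding genes without one, 34.5% and -0.53. Of those with a peak in all 6, 49 were tested, 7 were called lower and the median was 0.03, beside 1.9% and 0.03 over all genes with a peak in all 6, and 12.2% and -0.13 over other non-coding genes with one. Of those with a peak in 1 to 5 libraries, 12 were tested and 5 were called lower, with a median of -0.76. Over all genes with a peak in 1 to 5 these were 6.54% and -0.03. Within the class inside the stem gene, 10 of 12 tested without a peak and 3 of 3 with a peak in all 6 were called lower. These counts include genes tested through their FANS level alone, namely Sox5os3 without a peak, Hmgb4os with a peak in 5 libraries and Grip1os2 with a peak in all 6. Of the genes with a RefSeq window, the 27 without a peak had a median of 5 CG dinucleotides and a GC content of 50.3%, and the 43 with a peak in all 6 had a median of 19 and 61.7%. GGGCGG was found in 3 of the 27 and in 25 of the 43, and CACGTG, the E-box read by many bHLH factors, in 1 and 10. These matches are descriptions of the letters in the windows.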

How the data were processed

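Nuclear RNA-seq tables of 3 batches and 6 ATAC-seq peak lists were used. Per the methods, the authors mapped the RNA-seq reads to mm10 (STAR), collapsed duplicates using the molecular identifiers, and counted uniquely mapped reads per gene (HTSeq). The deposited values are a signal, read counts divided by DESeq size factors within a batch. Every value came out as a whole number of reads (100% within a tolerance of 0.1 read). The authors called ATAC-seq peaks per library with MACS2, and each deposited peak has a score, a fold enrichment, its significance as -log10 p, and the -log10 q-value.

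Each batch was tested on its own by limma 3.58.1 (R 4.3.3, trended prior) on the log2 of the normalized count with a pseudocount of 1. Genes needed a mean of at least 5 in the batch, and fold changes of low genes are understated. Calls needed a Benjamini-Hochberg adjusted p under 0.05 over all genes and at least 1.5-fold. SE is limma's standard error of the log2 fold change. edgeR 4.0.16 and DESeq2 1.42.0 on whole reads served as alternatives. Genes were matched to GRCm38.p6 by symbol (101 of 106) or older symbol (5). In batch 2, 8 FANS and 5 INTACT libraries are labelled, of which 7 and 4 were analysed here. Replicates within a batch came from 1 biological source, so p-values measure the spread between these libraries and not between sources.

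The genes and lists were chosen with earlier results of these data known. Named were the members called in any batch (the 25 of largest change per direction), the 10 of highest mean in batch 1, those with an interaction adjusted p under 0.05 and those nearest the limit, with stem genes. The 5 called beyond the 25 are named to complete the list. Arhgap27os3, Bcas3os2, Ino80dos, Lyzl4os, Mccc1os, Plxna4os1, Ptgs2os, Ptprtos and Rbm3os, and the stem genes Lyzl4, Ptgs2 and Zfhx2, fall outside this rule and were chosen after their values were seen.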

Additional observations from a re-analysis of the deposited data

Results flagged for a closer look

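The technique difference of 14 genes with os symbols in batch 1 differed from that in batch 2 by the interaction test, and that of 35 from batch 3. The values are the log2 fold change in batch 1 minus that in the other batch. Against batch 2, those more negative in batch 1 were Hmgb4os -2.01, Nrg3os -1.60, Map2k3os -1.52, Grip1os1 -1.40, Bcas3os1 -1.13, Pitpnm2os1 -1.04, Pcsk2os2 -1.03, Arhgap20os -0.72, Srrm4os -0.72, Ppp2r2cos -0.61, Sorbs2os -0.57, Dnm3os -0.48, Chn1os3 -0.37, and Slc7a6os 0.38 was the 1 in the other direction. Against batch 3, those more negative in batch 1 were Hmgb4os -2.20, Csmd2os -2.03, Nrg3os -1.91, Nell1os -1.61, Map2k3os -1.55, Grip1os2 -1.51, Bcas3os1 -1.47, Tbc1d22bos -1.39, Pcsk2os2 -1.27, Tnk2os -1.24, Grip1os1 -1.21, Mkln1os -1.04, Dnmt3aos -1.005, Pitpnm2os1 -0.99, Zfhx2os -0.99, Sp3os -0.98, Rptoros -0.98, Ppp2r2cos -0.87, Sorbs2os -0.86, Rab11fip4os1 -0.86, Prkag2os1 -0.84, Arhgap20os -0.80, Srrm4os -0.79, Ttc39aos1 -0.76, Ppp1r3fos -0.71, Grin1os -0.69, Fam219aos -0.55, Brip1os -0.55, Pcsk2os1 -0.50, Dnm3os -0.49, Chn1os3 -0.49, Slain1os -0.46, and those in the other direction were Chd3os 0.36, Nanos1 0.46, St8sia3os 1.26. Nanos1 is 1 of the symbols that name no opposite-strand gene. Both sets rest on the same batch 1 libraries, and batch, source and RNA integrity cannot be told apart.

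Single libraries stood apart from the others of their group, by the gap to the nearest library as a share of the range, in 16 of 198 groups tested, over 31 genes and 2 library measures. Chance flags about 1 in 20 groups. In batch 1 these were the FANS libraries replicate 1 for Arhgap20os (163 normalized counts, the lowest) and replicate 4 for Csmd2os (36.7) and Tnk2os (61.1), both the highest. Among the INTACT libraries of batch 1 they were replicate 1 for Nrg3os (129, the highest), replicate 3 for Dnmt3aos (13.9, the lowest) and replicate 4 for Tbc1d22bos (21.1, the highest). The INTACT value of Nrg3os that stood apart was the one nearest to the FANS libraries. In batch 2 they were the FANS libraries replicate 2 for Atxn7l1os2 (16.4), replicate 6 for Pitpnm2os1 (94.7) and replicate 7 for St8sia3os (22.0), and INTACT replicate 1 for Csmd2os (8.95). In batch 3 they were INTACT replicate 1 for Dlx6os1 (22.6) and Srrm4os (258), and FANS replicate 1 for Hmgb4os (3.79). FANS replicate 7 of batch 3 was the highest for Prkag2os1 (98.2) and Rptoros (48.6), and had the highest share of gene reads on os genes, 0.151%, beside a median of 0.131% over the 7 FANS libraries of that batch. It also had the most reads outside gene features of its group, 85.1%.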

How the results depend on the processing

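The 30 genes called lower in batch 1 were 23 to 30 under a pseudocount of 5, a mean of at least 20, no filter, 75th percentile scaling, quantile normalization, edgeR, DESeq2 and a blocking term, and 24 to 29 without 1 library. Without the fold limit there were 38. The 1 gene called higher became 0 with a mean of at least 20, 5 without the fold limit, and 0 to 2 without 1 library, with 0 without INTACT replicate 1 and 2 without FANS replicate 2 or FANS replicate 3. The batch 1 median of -0.31 was -0.26 with 75th percentile scaling and ran from -0.37 to -0.24 without 1 library. In batch 3, 1 gene was called higher without FANS replicate 7, and without that library 3 differed between batches 2 and 3. The pairs called in batch 1 fell from 28 to between 17 and 26 without 1 library, and the cause was not tested. For the called genes, 471 of the alternative values kept direction and call, 48 kept direction only, and none changed sign. Every library of batch 1 has a replicate number found in both techniques, so the unblocked fit on these numbers repeats the main fit. Its values are counted in the 471.

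The replicate numbers that the labels share were tried as a block. Same-numbered libraries did not deviate together in general, with correlations from -0.16 to 0.19, so the numbers were not taken to pair them. With the replicate block, 29 genes were called lower in batch 1, 14 pairs were called there, the batch 2 median was -0.13 and 2 genes were called higher in batch 3. In an alternative chosen after seeing the data, the same numbered libraries without the blocking term gave a batch 2 median of -0.13 and 2 genes called higher in batch 3. Low counts limit genes such as Hmgb4os and Sox5os3, with as few as 4 and 2 reads in an INTACT library of batch 1.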
